A study of Mus musculus with 2 samples.

Results

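The nuclear genes for subunits of the mitochondrial respiratory chain and ATP synthase were examined in mouse megakaryocytes, the large marrow and fetal liver cells whose fragments become platelets. Members were taken by symbol: Nduf genes of the a, b, c, s and v series for complex I, Sdha to Sdhd for complex II, Uqcr genes for complex III, Cox4 to Cox8 genes followed by a, b or c for complex IV, and Atp5 genes for complex V. Symbols ending in -ps were left out. The rule found 86 of 43346 Ensembl genes. Of these, 82 were annotated as protein coding: 37 for complex I, 4 for complex II, 8 for complex III, 16 for complex IV and 17 for complex V. The other 4, Ndufb4c, Ndufa11b, Ndufs6b and Cox6c2, were annotated as processed pseudogenes and are described apart, so counts and medians over members are over the 82 coding genes. No member was left out for a low level.

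Complexes I to IV pass electrons from NADH and succinate to oxygen and, except for complex II, pump protons across the inner mitochondrial membrane; complex V uses the resulting gradient to make ATP. Each complex apart from complex II also holds subunits encoded by mitochondrial DNA, so its assembly draws on both genomes. In megakaryocytes and in the platelets they shed, mitochondria supply ATP beside glycolysis.

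The 2 libraries were made from polyadenylated RNA of primary megakaryocytes from embryos of 14.5 days, with males and females pooled, and were sequenced as paired ends. No strain, treatment or other group is named in the labels. The labels call the libraries biological replicates 1 and 2, yet both cite the same biosample and donor. The spread between them may therefore be technical, and the labels do not settle this. With 1 group, no conditions were compared and no test was run; ratios of replicate 1 over replicate 2 are given as a measure of how well a value is known.

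Expected counts, the estimated number of fragments per gene, summed to 42099216 in replicate 1 and 2275922 in replicate 2. A count of 0 allowed up to 3 counts, equal to 0.0713 CPM (counts scaled to depth) in replicate 1 against 1.32 CPM in replicate 2. The cell type label was checked against marker genes. All 10 megakaryocyte markers had a mean TPM of 1 or more, with a median of 1255 TPM in replicate 1 against 1656 TPM in replicate 2 (TPM is a level per length, scaled to the library total). The hepatocyte gene Alb, encoding albumin, had 0 counts in both libraries. The 5 hepatocyte markers summed to 1.68 TPM in replicate 1 against 1.82 TPM in replicate 2. Of these, 3 including Alb had 0 counts in both, and Apoa1 had 1.39 TPM in replicate 1 against 1.82 TPM in replicate 2. All 7 macrophage markers were at least 2-fold higher in replicate 1, summing to 874 TPM in replicate 1 against 229 TPM in replicate 2, and so were all 5 granulocyte markers tested of 6 listed, summing to 800.5 TPM and 138 TPM. The 6 erythroid markers summed to 5363 TPM in replicate 1 against 13380 TPM in replicate 2, of which the alpha globin gene Hba-a1 made up 83.5% in replicate 1 and 95% in replicate 2.

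Nearly all subunit genes were detected, and many were abundant. A mean TPM of 1 or more, called detected here, was found for 78 of the 82 members (95.1%), against 42.5% of all 21474 protein coding genes. In both libraries 72 members (87.8%) had 1 TPM or more, against 34.8% of protein coding genes. Means of 100 TPM or more were found for 35 members (42.7%), against 5.75% of protein coding genes. The median member had 90.6 TPM in replicate 1 against 31.9 TPM in replicate 2, while the median over the 9123 protein coding genes at a mean TPM of 1 or more was 12.3 TPM in replicate 1 against 8.19 TPM in replicate 2. The member median was thus the higher in both libraries, though the libraries differed by more for the members than for detected genes. Together the members took 2.32% of all TPM in replicate 1 and 2.03% in replicate 2. In bulk RNA such as this, fewer cells of a type and less RNA per cell cannot be told apart.

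**Figure D1:**
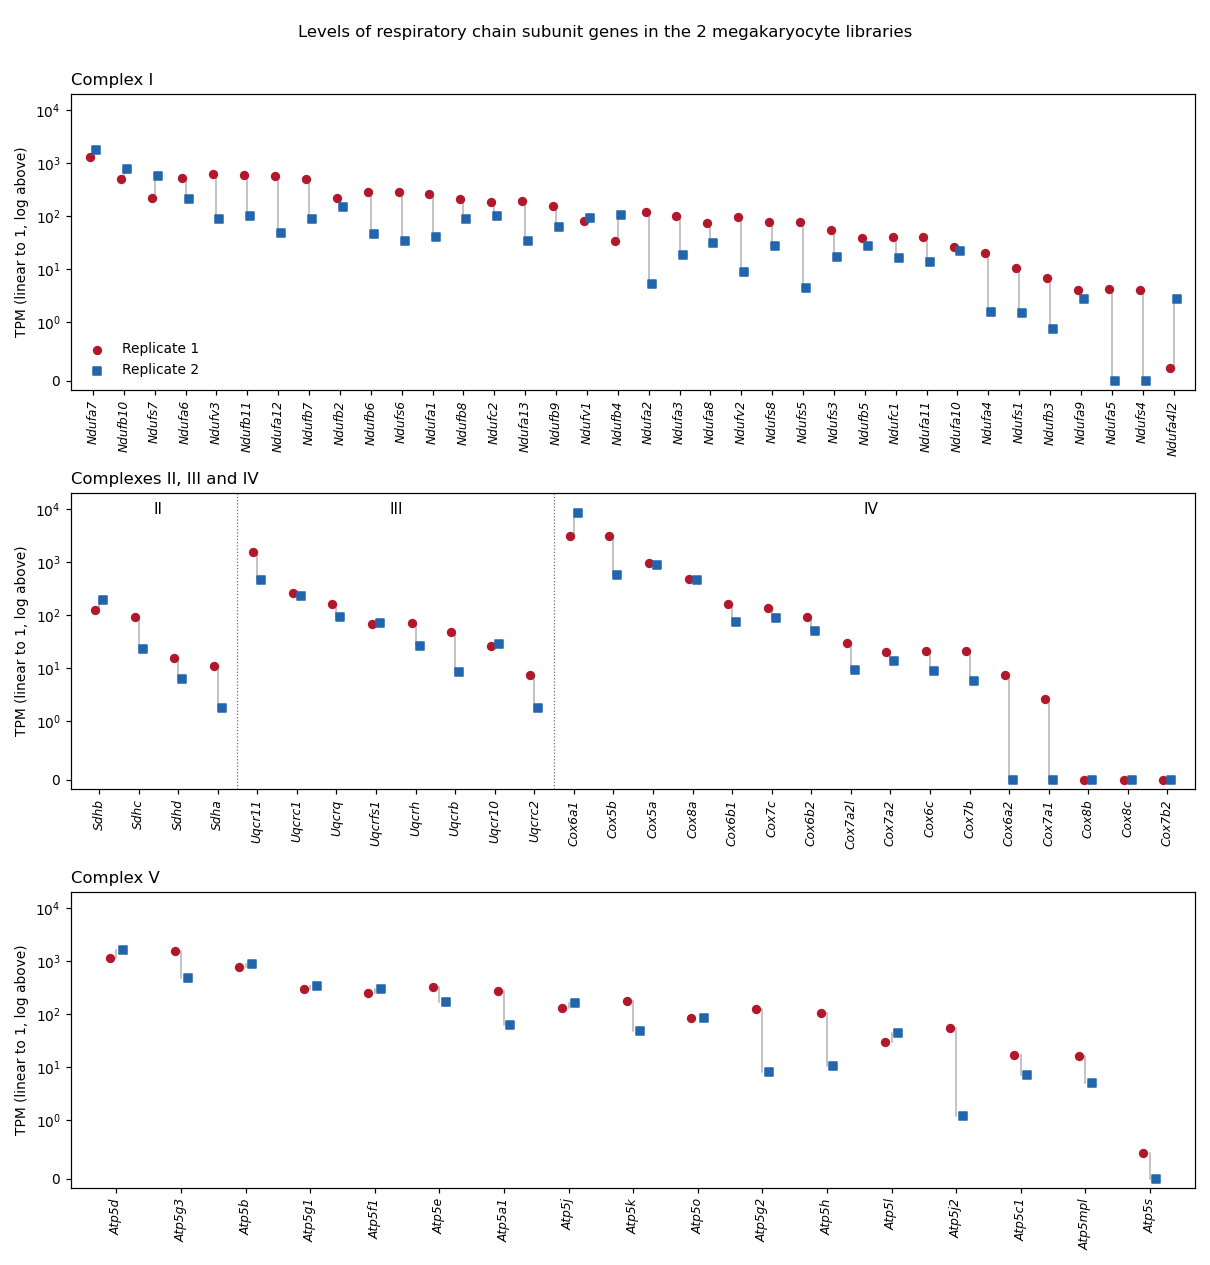
TPM of 81 of the 82 protein coding subunit genes (vertical axis, linear up to 1 and logarithmic above) in replicate 1 (circles) and replicate 2 (squares), ordered within each complex by mean TPM; a grey line joins the values of a gene. Levels within a complex spread over orders of magnitude, from Cox6a1 at 3048 and 8288 TPM to Cox7b2, Cox8b and Cox8c at 0 in both libraries.

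The complexes contributed unequally. By the median of the members' mean TPM, complex V came first at 112, followed by complex I at 61.5, complex III at 58.2, complex II at 33.7 and complex IV at 18.2. In replicate 2 alone, complex III (48.9) lay above complex I (30.9), the reverse of replicate 1 (68.9 and 94.7). The complex IV median takes in genes near 0. Over its 13 members with a mean count of 10 or more it was 70.07, against 65.4 for complex I under the same minimum. By summed TPM the order was different, because a few complex IV genes were very high. Complex IV held 34.5% of the summed TPM of all members in replicate 1 and 51.4% in replicate 2, and complex I held 32.3% in replicate 1 and 22.6% in replicate 2. Complex V held 22.9% in replicate 1 and 20.5% in replicate 2, complex III 9.32% and 4.46%, and complex II 1.04% and 1.07%. By summed TPM, the place of complex IV above complex I rested in replicate 2 on Cox6a1, 79.5% of the complex IV sum there. In replicate 1 Cox6a1 was 38.1% of that sum, and Cox5b was nearly as high, with 3036 TPM against 3048 TPM for Cox6a1. The sums in replicate 1 were 8009 TPM for complex IV against 7511 TPM for complex I, so leaving out either gene would reverse the order. The symbol rule does not take in Ndufab1 of complex I (810 TPM in replicate 1) or Cox4i1 of complex IV (208 TPM). Counting both would put complex I above complex IV in replicate 1, but not in replicate 2.

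In complex I, the NADH dehydrogenase, the accessory subunit gene Ndufa7 (chr17:33824572-33838317, plus strand, build mm10) had the highest mean, with 1292 TPM in replicate 1 against 1783 TPM in replicate 2 (1537 ± 347, mean ± SD, n = 2). Ndufb10, an accessory subunit of the membrane arm, had 497 TPM in replicate 1 against 751 TPM in replicate 2. Ndufs7, whose protein carries the last iron-sulfur cluster before ubiquinone, had 218 TPM in replicate 1 against 564 TPM in replicate 2. All 3 were higher in replicate 2, unlike most members.

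The core complex I genes, those with bacterial counterparts, did not share 1 level. Ndufv1, which binds NADH and its flavin, had 80.6 TPM in replicate 1 against 92.0 TPM in replicate 2. Its partner in the NADH module, Ndufv2, had 94.7 TPM in replicate 1 against 8.89 TPM in replicate 2. Ndufs8, an iron-sulfur subunit, had 75.1 TPM in replicate 1 against 26.4 TPM in replicate 2. Ndufs3, another core subunit, was lower on average, with 54.8 TPM in replicate 1 against 16.5 TPM in replicate 2. Ndufs1, the largest iron-sulfur subunit, was the lowest core gene at 10.3 TPM in replicate 1 against 1.5 TPM in replicate 2, the second value resting on 3 counts.

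Several accessory genes of complex I were far higher in replicate 1. Ndufv3 had 629 TPM in replicate 1 against 87.6 TPM in replicate 2, Ndufb11 had 584 and 99.8 TPM, and Ndufa12 had 557 and 48.0 TPM. The same held for Ndufb7 with 492 and 87.2 TPM, for Ndufs6, a zinc-binding subunit of the NADH module, with 287 and 33.7 TPM, for Ndufb6 with 283 and 45.8 TPM and for Ndufa1, encoded on the X chromosome, with 262 and 39.6 TPM. Others were closer between the libraries: Ndufb2 had 215 TPM in replicate 1 against 147 TPM in replicate 2, Ndufc2 had 185 and 100.7 TPM, Ndufb5 had 38.3 and 26.5 TPM, and Ndufa10 had 26.2 and 21.6 TPM.

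At the low end of complex I, Ndufs4, an accessory subunit at the NADH module whose loss in mice causes a Leigh-like encephalopathy, had 3.97 TPM (218 counts) in replicate 1 against 0 counts in replicate 2. Ndufa5 had 4.10 TPM in replicate 1 against 0 in replicate 2. Ndufa9 had 3.97 TPM in replicate 1 against 2.75 TPM in replicate 2. The lowest member of complex I was Ndufa4l2, a relative of Ndufa4 known for its induction under low oxygen, with 0.22 TPM (7 counts) in replicate 1 against 2.65 TPM (4 counts) in replicate 2.

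Complex II, succinate dehydrogenase, has only nuclear-encoded subunits and also serves the tricarboxylic acid cycle. Sdhb, the iron-sulfur subunit (chr4:140961203-140979193, plus strand), was highest, with 124.5 TPM in replicate 1 against 187 TPM in replicate 2. The membrane anchors Sdhc and Sdhd were lower: Sdhc had 90.1 TPM in replicate 1 against 22.9 TPM in replicate 2, and Sdhd had 15.6 TPM in replicate 1 against 6.14 TPM in replicate 2. Sdha, the flavoprotein that binds succinate, was lowest at 10.9 TPM in replicate 1 against 1.77 TPM in replicate 2. The order of the 4 genes by TPM was thus the same in both libraries, and Sdhb made up 51.6% of the complex II sum in replicate 1 and 85.9% in replicate 2. In replicate 2, however, Sdhd rested on 13 counts and Sdha on 3. A second deposited estimate of TPM, the posterior mean, put Sdha (18.9) above Sdhd (4.68) in that library.

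Complex III, the cytochrome bc1 complex, was led by Uqcr11, a small accessory subunit, with 1533 TPM in replicate 1 against 454 TPM in replicate 2 (993 ± 763, n = 2). Uqcrc1, a core protein, had 256 TPM in replicate 1 against 228 TPM in replicate 2. Its partner core protein gene Uqcrc2 was the lowest member, with 7.28 TPM in replicate 1 against 1.74 TPM in replicate 2, although the proteins stand in equal number in the complex. The Rieske iron-sulfur gene Uqcrfs1 had 66.6 TPM in replicate 1 against 69.5 TPM in replicate 2. The small subunit gene Uqcrq had 158 TPM in replicate 1 against 89.6 TPM in replicate 2. The remaining genes, Uqcrh, Uqcrb and Uqcr10, lay between 25.4 and 71.2 TPM in replicate 1 and between 8.33 and 28.2 TPM in replicate 2.

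Complex IV, cytochrome c oxidase, held the highest subunit gene of all. Cox6a1 (chr5:115345642-115348981, minus strand) encodes a small subunit on the face of the enzyme toward the intermembrane space; it had 3048 TPM in replicate 1 against 8288 TPM in replicate 2 and ranked 26 among all genes by mean TPM. Cox5b, a zinc-binding subunit, had 3036 TPM in replicate 1 against 554 TPM in replicate 2. Cox5a had 956 TPM in replicate 1 against 875 TPM in replicate 2 (916 ± 57.2, n = 2). Cox5a and Cox8a were the steadiest of the high complex IV genes, while Cox6a1 and Cox5b differed between the libraries in opposite directions. Cox7c had 138 TPM in replicate 1 against 86.5 TPM in replicate 2, and Cox6c had 20.5 TPM in replicate 1 against 8.82 TPM in replicate 2.

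In complex V, the F1 head genes ranged widely. Atp5d, the delta subunit of the central stalk, had 1147 TPM in replicate 1 against 1579 TPM in replicate 2 (1363 ± 305, n = 2), the highest mean in the complex. The catalytic beta subunit gene Atp5b had 765 TPM in replicate 1 against 867 TPM in replicate 2, and the alpha subunit gene Atp5a1, with which it alternates in the head, had 271 TPM in replicate 1 against 62.7 TPM in replicate 2. Atp5e, the epsilon subunit, had 316 TPM in replicate 1 against 166 TPM in replicate 2. The gamma subunit gene Atp5c1, the rotor shaft, was the lowest of the head genes with 16.9 TPM in replicate 1 against 7.08 TPM in replicate 2. Alpha and beta stand in equal number in the head and gamma, delta and epsilon once each, whereas the gene levels differed widely. Much of the Atp5b and Atp5a1 level lay on transcripts not annotated as protein coding: Atp5b-207, a processed transcript of 343 bases, made up 90.9% of Atp5b in replicate 1 and 94.3% in replicate 2, and Atp5a1-204, annotated for nonsense mediated decay, made up 63.6% and 74.6% of Atp5a1.

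The peripheral stalk genes of complex V were of middle level. Atp5f1, subunit b, had 253 TPM in replicate 1 against 300.0 TPM in replicate 2. Atp5o, the oligomycin sensitivity conferring protein, had 84.6 TPM in replicate 1 against 83.4 TPM in replicate 2 (84.0 ± 0.82, n = 2), the closest pair among members above a mean TPM of 5. Atp5j, coupling factor 6, had 128 TPM in replicate 1 against 163 TPM in replicate 2, and Atp5h, subunit d, had 105 TPM in replicate 1 against 10.4 TPM in replicate 2. The membrane subunit genes were Atp5k (subunit e) with 176 TPM in replicate 1 against 48.0 TPM in replicate 2, Atp5l (subunit g) with 30.1 and 44.4 TPM, Atp5j2 (subunit f) with 54.6 and 1.17 TPM, and Atp5mpl with 15.7 and 4.95 TPM. Subunits e and g, which help the enzyme form dimers, thus differed in opposite directions between the libraries. The lowest member was Atp5s, with 0.43 TPM (23 counts) in replicate 1 against 0 counts in replicate 2; its product, coupling factor B, is not a stoichiometric subunit.

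Where a subunit has alternative genes, 1 of them usually held most of the level. Cox6a1, the widely expressed form, had 3048 TPM in replicate 1 against 8288 TPM in replicate 2, against 7.26 TPM and 0 for Cox6a2, the form known from heart and skeletal muscle. For subunit 8, Cox8a had 478 TPM in replicate 1 against 463 TPM in replicate 2, while Cox8b, another muscle form, and Cox8c, known from testis, had 0 counts in both libraries. Cox7a1, also a muscle form, had 2.56 TPM in replicate 1 against 0 in replicate 2, against 20.3 TPM and 13.3 TPM for Cox7a2. Their relative Cox7a2l, which takes part in forming supercomplexes with complex III, had 29.7 TPM in replicate 1 against 9.26 TPM in replicate 2. Cox7b had 20.6 TPM in replicate 1 against 5.68 TPM in replicate 2, and Cox7b2 had 0 counts in both. Cox4i1, which the symbol rule does not take in, had 208 TPM in replicate 1 against 47.8 TPM in replicate 2, against 2.67 TPM and 0 for Cox4i2, the form of lung and low oxygen.

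Subunit 6b was different. Cox6b2, described mainly from testis, had 91.1 TPM (1471 counts) in replicate 1 against 49.1 TPM (37 counts) in replicate 2. Its partner Cox6b1 had 162 TPM in replicate 1 against 72.3 TPM in replicate 2. The level of Cox6b2 was therefore more than 50% of that of Cox6b1 in each library, and neither an overlapping exon nor a near-identical copy of Cox6b2 was found in the annotation. The 7 striated muscle markers summed to 1.83 TPM in replicate 1 against 0.76 TPM in replicate 2, and 4 of them had 0 counts in both libraries.

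The c ring of complex V is built from 1 mature protein encoded by 3 genes that differ in their import sequences. Atp5g3 had 1529 TPM in replicate 1 against 468 TPM in replicate 2, Atp5g1 had 294 TPM in replicate 1 against 337 TPM in replicate 2, and Atp5g2 had 121 TPM in replicate 1 against 8.13 TPM in replicate 2. Atp5g3 was highest and Atp5g2 lowest in both libraries. Ndufa4, named with complex I but now known as a subunit of complex IV, had 19.7 TPM in replicate 1 against 1.56 TPM in replicate 2, the second value resting on 1 count; counting it and Ndufa4l2 with complex IV gave medians of 69.3 TPM for complex I and 15.7 TPM for complex IV.

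**Figure D2:**
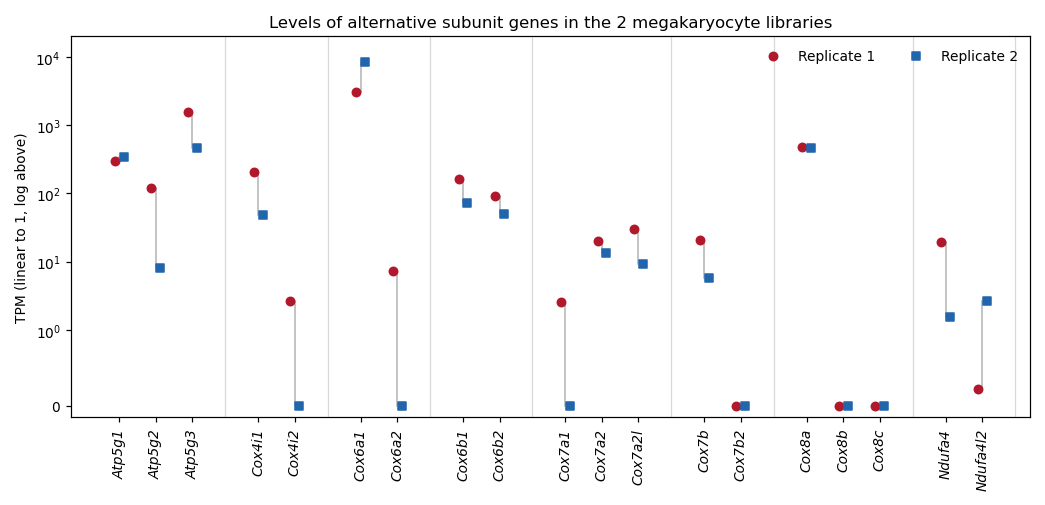
TPM of alternative subunit genes (vertical axis, linear up to 1 and logarithmic above) in replicate 1 (circles) and replicate 2 (squares), grouped by subunit. The muscle forms Cox6a2, Cox7a1 and Cox8b lie at 7.26 TPM or below in both libraries, whereas Cox6b2 lies near Cox6b1.

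Across the 82 members, log2(TPM + 1) in replicate 1 and replicate 2 had a Pearson correlation of 0.886 and a Spearman correlation of 0.878, given as a description since genes of a library share its depth. Over the 9858 genes at a mean TPM of 1 or more the values were 0.816 and 0.764. The sets are unlike, since the members had no minimum level and include 3 complex IV genes at 0 in both libraries. Within complexes, the Pearson correlation was 0.964 over the 16 complex IV genes, 0.859 over the 17 complex V genes and 0.817 over the 37 complex I genes.

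As a set, the subunit genes leaned toward replicate 1. Counts were scaled by TMM factors, which set libraries on a common footing, and ratios of replicate 1 over replicate 2 were taken for genes with a mean count of 100 or more. Of the 71 members tested, 40 (56.3%) were at least 2-fold higher in replicate 1, against a background of 33.8% of all 8194 genes tested. Only 3 members (4.23%) were at least 2-fold lower in replicate 1, against 15.7% of all genes, and 28 were within 2-fold. The median log2 ratio was 1.09 over members and 0.29 over all genes tested, a difference of 0.80, and 51 members lay above the median of all genes. That difference was 0.39 with the trend of the ratio with length removed, with 41 members above the median, and 0.63 with the trend with GC content removed. Calls moved with scaling: DESeq2 size factors gave 35 higher and 4 lower, against 31.4% and 18.6% of all genes, and total counts gave 45 higher and 2 lower, against 43.5% and 7.3%.

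Because replicate 1 was much deeper, the minimum on the mean count could be passed through replicate 1 alone. Of the 71 members tested, 13 had under 10 counts in replicate 2, and all 13 were among the 40 higher in replicate 1, as the minimum made likely; of all genes tested, 1881 had under 10 counts there and 1623 of these were higher in replicate 1. The counts of members called higher therefore include genes that the minimum admitted through replicate 1. With a minimum of 50 CPM on the mean, which weighs both libraries equally, 15 of 32 members (46.9%) were higher and 2 lower (6.25%), against 15.8% and 26.4% of all 2576 genes. A mean of 50 CPM can still be reached through replicate 1 alone, so this minimum does not remove all such members.

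By complex, 23 of 33 tested members of complex I (69.7%) were at least 2-fold higher in replicate 1 and 1 was lower, with a median log2 ratio of 1.34, and complex II had 3 higher of 4, with a median of 1.31. Complex III had 4 higher of 8 (50%) and complex V 7 of 15 (46.7%). Complex IV had 3 of 11 (27.3%), below the 33.8% of all genes tested. By scaled counts the members lower in replicate 1 by 2-fold or more were Ndufb4, Cox6a1 and Atp5f1. By TPM they were Ndufb4, Cox6a1 and Ndufs7, with Atp5f1 at a log2 ratio of -0.25 and Ndufs7 at -1.37. Since the highest genes carried most counts, the ratio of summed counts was 1.01 for all tested members together. The same ratio was 0.738 for all genes tested and 1.035 for tested genes under 1000 bases. By complex it ran from 0.632 for complex IV to 1.66 for complex I.

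Among single genes, Atp5j2, subunit f of complex V, had the largest ratio at 35.1, but its replicate 2 value was 1 count and the 95% interval for counting error ran from 6.28 to 1387. Ndufa2 followed at 20.2 (7.86 to 74.0; 4 counts in replicate 2), then Ndufs5 at 15.4 (5.27 to 75.0), Sdha at 14.7 (5.03 to 71.6) and Ndufa4 at 11.01 (1.96 to 437). Ndufa12, an accessory subunit near the NADH module, was better measured, at 10.3-fold higher in replicate 1 (6.97 to 15.9; 25 counts in replicate 2), though nearly all of its level lay on a transcript annotated as a retained intron. Ndufs4, with 0 counts in replicate 2, was at least 2.90-fold higher in replicate 1, taking 3 counts as the floor for that library.

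At the other end, Ndufb4 was 3.72-fold lower in replicate 1 (ratio 0.269, interval 0.228 to 0.319) and Cox6a1 was 3.13-fold lower (0.319, 0.311 to 0.328). Atp5f1 was 2.04-fold lower in replicate 1, with an interval of 0.456 to 0.527 around the ratio of 0.490. Ndufs7 had a ratio of 0.531 and Sdhb one of 0.570, both within 2-fold. These 5 genes had between 161 and 6523 counts in replicate 2, so counting error was small for each of them. Ndufb4 shares its coding sequence with another locus, as described further on.

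**Figure D3:**
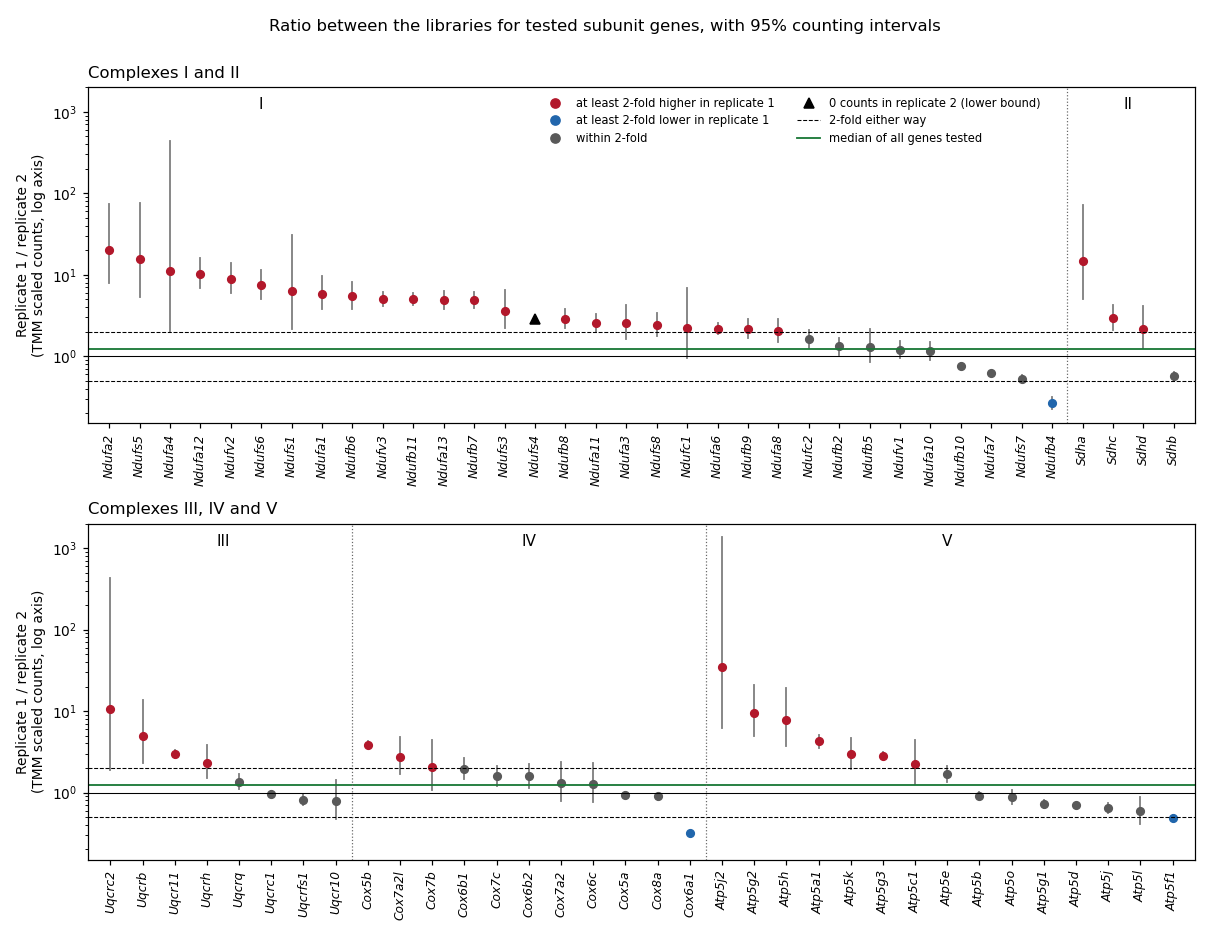
Ratio of replicate 1 over replicate 2 in TMM scaled counts (logarithmic vertical axis) for 70 of the 71 tested subunit genes, ordered within complexes, with exact 95% intervals for counting error. Colours mark genes at least 2-fold higher or lower in replicate 1, the triangle is the lower bound for Ndufs4, and the green line is the median fold of 1.23 over all genes tested; 40 genes lie above 2-fold and 3 below.

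Over all genes tested, those under 1000 bases were more often higher in replicate 1, whereas among the members the longer ones were. The members were short, with a median length of 649 bases against 1923 bases for protein coding genes at a mean TPM of 1 or more. Among the 1481 tested genes under 1000 bases, 44.5% were at least 2-fold higher in replicate 1 and 12.1% at least 2-fold lower. Of the 55 tested members under 1000 bases, 30 (54.5%) were higher and 2 lower, and of the 16 longer members 10 (62.5%) were higher and 1 lower. Over all 6713 tested genes of 1000 bases or more, 31.4% were higher and 16.5% lower. With the trend of the ratio with length removed, 27 of 71 members were higher and 10 lower, against 31.8% and 16.4% of all genes. The macrophage and granulocyte markers were also higher in replicate 1, with median log2 ratios of 3.32 and 2.94; the part of those cells, and of length, in the members' ratios was not tested.

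In most members the same transcript led in both libraries. Among the 52 members that have 2 or more annotated transcripts and average 5 TPM or more, 37 (71.2%, exact 95% interval 56.9 to 82.9) had the same dominant transcript, against 3108 of 4695 genes overall (66.2%, 64.8 to 67.6). Cox6a1-201 made up 99.1% of the gene's level in replicate 1 and 99.8% in replicate 2, and Ndufa7-201 made up 94.4% and 94.6%. Uqcr11-201 made up 99.7% in replicate 1 and 100% in replicate 2. Of the 37, the shared leading transcript was annotated as protein coding in 31 and not in 6. Those 6 were Atp5a1 and Atp5b, given above, with Ndufa12, Ndufb2, Ndufs3 and Uqcrq. The retained intron Ndufa12-202 made up 98% of Ndufa12 in replicate 1 and 100% in replicate 2, and the retained intron Ndufb2-206 made up 80.9% and 100% of Ndufb2. The processed transcripts Ndufs3-206 and Uqcrq-204 made up 81.4% and 69.9% of Ndufs3 and 55.4% and 47.5% of Uqcrq. Over all 52 members, the leading transcript was not annotated as protein coding in 10 in replicate 1 and in 15 in replicate 2. The annotation of leading transcripts was not counted over all genes, so whether these numbers are particular to the members is not known.

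A different transcript led in 15 members. For 4 of these, replicate 2 had over 100 counts. In Atp5d, the coding transcript Atp5d-201 made up 70.9% in replicate 1 and 15.9% in replicate 2, whereas the shorter coding transcript Atp5d-202 made up 28.5% in replicate 1 and 84.1% in replicate 2. In Ndufs7, the coding Ndufs7-201 made up 94.2% in replicate 1 and 21.6% in replicate 2, and a transcript annotated as a retained intron, Ndufs7-205, made up 0.105% and 71.7%. Ndufb10 had its leading transcript in replicate 1, the retained intron Ndufb10-202, at 51.4% there and 9.41% in replicate 2, and the processed transcript Ndufb10-206 at 46.5% and 81.1%. Atp5f1 was led by retained intron transcripts in both libraries, Atp5f1-202 at 56.2% in replicate 1 and 39.6% in replicate 2, and Atp5f1-205 at 25.9% and 54.2%.

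The other 11 members with different leading transcripts rested on fewer counts. Ndufv1 had 2 retained intron transcripts in turn, Ndufv1-211 at 46.0% in replicate 1 and 19.6% in replicate 2, and Ndufv1-209 at 38.0% and 75.1%. Cox7c-203 made up 85.3% of Cox7c in replicate 1 and 38.1% in replicate 2. Ndufb8-201 made up 64.7% of Ndufb8 in replicate 1 and 0% in replicate 2, where the retained intron Ndufb8-203 made up 91.4% on 45.1 counts. The remaining 8 were Atp5c1, Atp5g2, Atp5h, Atp5j2, Cox6c, Ndufa3, Ndufs1 and Sdha, with at most 19 counts each in replicate 2. How fragments are divided between transcripts is an estimate of the authors' quantification.

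The level of Ndufb4 could not be separated from that of a copy. Ndufb4, an accessory subunit gene of complex I (chr16:37647170-37654453, minus strand), had 33.1 TPM in replicate 1 against 106 TPM in replicate 2. Ndufb4c (chr15:73809507-73809896, minus strand), annotated as a processed pseudogene, had 851 TPM in replicate 1 against 1424 TPM in replicate 2. All 390 bases of Ndufb4c were identical to bases 95 to 484 of the Ndufb4 transcript, with no gap and no mismatch. The first 120 of these shared bases, shown because no fragment within them can be placed on 1 locus, read as follows.
Ndufb4 and Ndufb4c: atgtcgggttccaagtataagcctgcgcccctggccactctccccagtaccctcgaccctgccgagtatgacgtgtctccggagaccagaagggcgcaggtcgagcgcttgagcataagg

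The expected counts of the pair were not whole but summed to whole numbers, 9593 in replicate 1 and 803 in replicate 2. Ndufb4c held 88.7% of the sum in replicate 1 and 79.9% in replicate 2. Assigning all of these fragments to Ndufb4 would give it 293 TPM in replicate 1 against 525 TPM in replicate 2, in place of the deposited 33.1 and 106 TPM. With the counts summed, the ratio was 0.477 (0.443 to 0.513), so the pair was also at least 2-fold lower in replicate 1. The other processed pseudogenes with matching names, Ndufa11b, Ndufs6b and Cox6c2, had 0 counts in both libraries.

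Atp5g2 raised the same question with a larger effect on its ratio. Stretches of Atp5g2 were 100% identical to Gm10231 on chromosome 17 over 441 bases and to Gm10175 on chromosome 7 over 645 bases. Gm10231 was annotated as a processed pseudogene and Gm10175 as a transcribed processed pseudogene. Counts of the 3 loci summed to 4225 in replicate 1 and 85 in replicate 2. Atp5g2 held 50.4% in replicate 1 and 10.4% in replicate 2, Gm10231 held 48.2% and 47.8%, and Gm10175 held 1.34% and 41.8%. The ratio of Atp5g2 alone was 9.44 (4.96 to 20.7), whereas that of the 3 loci together was 1.98 (1.60 to 2.49), within 2-fold. Summing every member with its copies in this way gave 39 members higher and 3 lower.

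Of the 82 coding members, 15 had a copy elsewhere with at least 97% identity over at least 100 bases, and 6 of these had a copy with counts above the floor. Counts that were not whole occurred in 9 members, and all 9 had such a copy. Exons of 25 members were also overlapped by a gene on the opposite strand, 21 of them by a protein coding gene. An example is Atp5j, which shares 397 exonic bases with Gabpa, the gene of an ETS family factor known to act on respiratory genes. Strand use in counting is not given in the sources used here, so reads of such pairs may not have been told apart. Copies and overlapping exons were not counted over all genes, so no background share stands beside these numbers.

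**Figure D4:**
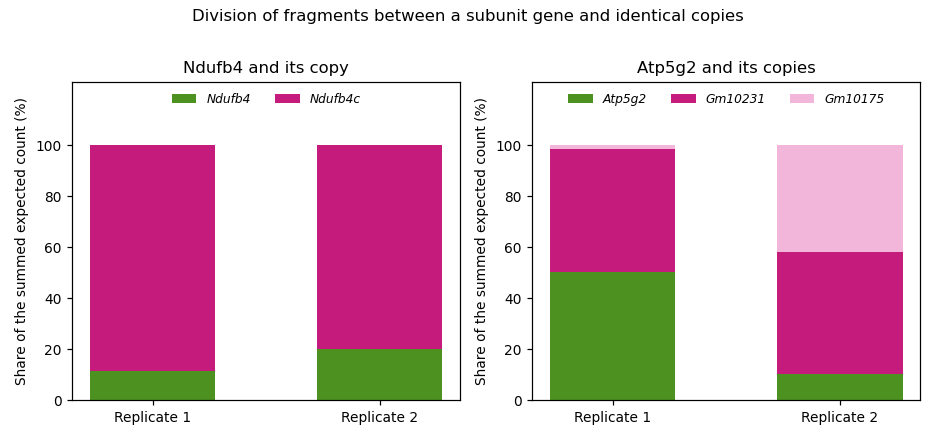
Share of the summed expected count (vertical axis, percent) placed on Ndufb4 and Ndufb4c (left) and on Atp5g2, Gm10231 and Gm10175 (right) in replicate 1 and replicate 2. Ndufb4c takes 88.7% and 79.9% of its pair, and the Atp5g2 share is 50.4% in replicate 1 and 10.4% in replicate 2.

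Promoters of respiratory genes are known for binding sites of NRF1, of ETS family factors such as GABP, and of YY1, which is background to a search of the sequences. RefSeq promoter windows (GRCm38.p6, 250 bases before to 50 after a start) were found for 68 of the 82 members, as 73 windows. Exact matches were counted on both strands. The NRF1 core GCATGCGC was in 13.7% of member windows, against 5.20% of windows of genes at a mean TPM of 1 or more and 2.71% of all 32851 windows. The YY1 core AAGATGGC was also in 13.7% of member windows, against 4.76% and 2.75%. The ETS core CCGGAAG was in 21.9%, against 18.9% and 8.86%, so on this motif members lay near other detected genes.

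The shares of more general promoter motifs lay nearer the background or below it. The SP1 core GGGCGG was in 39.7% of member windows, against 63.8% of windows of detected genes and 35.7% of all windows. TATAAA was in 10.96%, against 6.37% and 13.6%, and CCAAT was in 42.5%, against 37.4% of detected and 37.4% of all windows. The median GC content was 57.3% in members, 61.3% in detected genes and 52.7% in all windows. No test was made of these shares, and a match is not a bound site.

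Upstream sequence outside annotated exons is shown for 4 high members, because it holds these matches at genes with mean levels from 241 to 5668 TPM. Capitals mark the NRF1, ETS and YY1 cores on either strand; where the NRF1 core matches on both strands the matches overlap. The stretches, all read on the minus strand, are chr5:115348982-115349129 for Cox6a1, chr15:82354323-82354541 for Ndufa6, chr10:80406831-80407071 for Uqcr11 and chr2:174464106-174464351 for Atp5e. Of these, Ndufa6 encodes an accessory subunit of complex I that binds the acyl carrier protein.
Cox6a1: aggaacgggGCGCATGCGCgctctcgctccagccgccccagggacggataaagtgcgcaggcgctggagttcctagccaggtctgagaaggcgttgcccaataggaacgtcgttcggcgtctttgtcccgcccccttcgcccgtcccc
Ndufa6: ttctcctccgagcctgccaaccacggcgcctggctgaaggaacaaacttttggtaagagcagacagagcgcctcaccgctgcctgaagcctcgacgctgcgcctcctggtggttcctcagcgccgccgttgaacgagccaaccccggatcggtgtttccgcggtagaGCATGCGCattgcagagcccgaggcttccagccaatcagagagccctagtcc
Uqcr11: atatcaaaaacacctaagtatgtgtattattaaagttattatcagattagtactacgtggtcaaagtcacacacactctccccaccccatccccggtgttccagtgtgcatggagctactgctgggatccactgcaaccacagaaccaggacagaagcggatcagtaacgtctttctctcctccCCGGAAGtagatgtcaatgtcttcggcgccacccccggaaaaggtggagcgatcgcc
Atp5e: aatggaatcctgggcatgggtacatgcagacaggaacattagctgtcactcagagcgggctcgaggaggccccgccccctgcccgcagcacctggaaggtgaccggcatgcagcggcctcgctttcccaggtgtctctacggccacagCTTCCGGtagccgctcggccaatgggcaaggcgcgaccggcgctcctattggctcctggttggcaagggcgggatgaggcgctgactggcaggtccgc

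Cox6a1 and Ndufa6 each carried an NRF1 core in the stretch shown, and Uqcr11 and Atp5e each an ETS core. In their whole windows, Cox6a1 and Uqcr11 held both cores. Ndufa6 had 513 TPM in replicate 1 against 204 TPM in replicate 2. Not all high members held such matches: neither window of Ndufa7 (1537 ± 347 TPM) nor that of Cox5b, nor either window of Atp5d, held 1 of the 3 cores. Of the factors, Nrf1 itself had 7.11 TPM in replicate 1 against 2.85 TPM in replicate 2, Gabpa had 2.11 TPM and 0, and Yy1 had 26.7 TPM and 53.1 TPM.

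**Figure D5:**
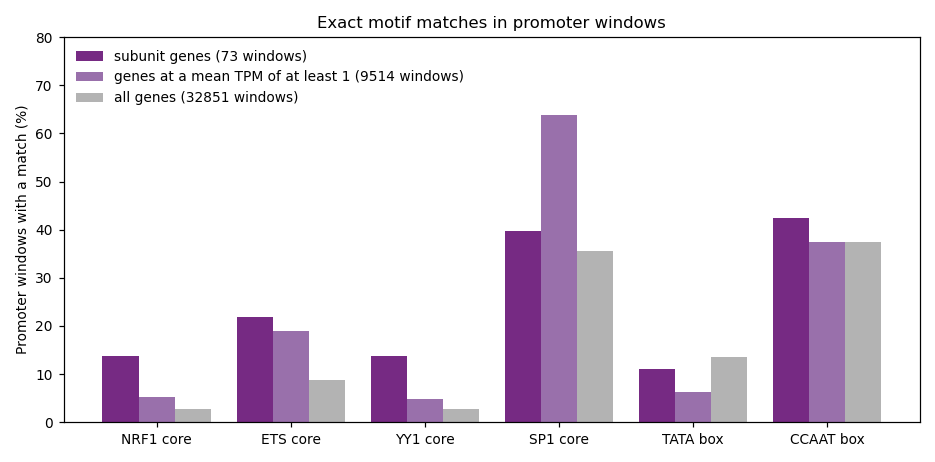
Share of promoter windows with at least 1 exact match to a motif on either strand (vertical axis, percent) for the subunit genes, for genes at a mean TPM of 1 or more and for all genes. The NRF1 and YY1 cores are each in 13.7% of subunit windows, above the 5.20% and 4.76% of windows of detected genes, while the SP1 core is in 39.7%, below 63.8%.

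Subunits that the symbol rule does not take in were examined beside the members. Ndufab1, the acyl carrier protein that sits in complex I, had 810 TPM in replicate 1 against 2660 TPM in replicate 2, above every complex I member on average. Cyc1, cytochrome c1 of complex III, had 123 TPM in replicate 1 against 88.0 TPM in replicate 2. Cycs, the mobile carrier cytochrome c, had 8.86 TPM in replicate 1 against 0.18 TPM (1 count) in replicate 2. Atpif1, the inhibitor of ATP synthase, had 339 TPM in replicate 1 against 57.5 TPM in replicate 2.

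The genes of the mitochondrial genome gave uneven values. The complex I gene mt-Nd1 had 598 TPM in replicate 1 against 150 TPM in replicate 2, mt-Cytb of complex III had 481 and 223 TPM, and mt-Co1 of complex IV had 490 and 99.8 TPM. In contrast mt-Co2 and mt-Co3, the other catalytic core genes of complex IV, were listed at 0 and 0 TPM in replicate 1 and at 0.04 and 0.96 TPM in replicate 2, and mt-Nd3 was listed at 0 in both. Further, mt-Nd4l had 909 TPM (5774 counts) in replicate 1 against 0 in replicate 2, and mt-Atp6 had 119 TPM in replicate 1 against 0 in replicate 2. Neighbouring genes of 1 genome thus ran from 0 to 909 TPM in replicate 1, and these levels were not summed with the nuclear members.

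Genes that build and feed the chain were present at lower levels. Of 44 assembly factors, 37 had a mean TPM of 1 or more, with a median of 14.1 TPM in replicate 1 against 4.82 TPM in replicate 2; 13 of 29 tested (44.8%) were at least 2-fold higher in replicate 1 and 1 was lower, against 33.8% and 15.7% of all genes tested, the background for each list that follows. Cox17, a copper chaperone for complex IV, led with 268 TPM in replicate 1 against 27.8 TPM in replicate 2, followed by Cox14 with 140 and 86.1 TPM and Uqcc2 with 157 and 36.6 TPM. The lowest was Sdhaf3, a complex II factor, with 0.52 TPM in replicate 1 against 0 in replicate 2. All 77 mitochondrial ribosomal protein genes were found and 72 had a mean TPM of 1 or more, with a median of 27.4 TPM in replicate 1 against 16.6 TPM in replicate 2. Of 68 tested, 32 (47.1%) were at least 2-fold higher in replicate 1 and 7 (10.3%) lower. Mrpl52 led with 889 TPM in replicate 1 against 830 TPM in replicate 2, then Mrpl54 with 741 and 472 TPM and Mrpl17 with 260 and 569 TPM, and Mrpl35 was lowest with 0.51 and 0.15 TPM.

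Of 18 genes of the tricarboxylic acid cycle and pyruvate dehydrogenase, 17 had a mean TPM of 1 or more, with a median of 16.7 TPM in replicate 1 against 9.52 TPM in replicate 2; 9 of 17 tested (52.9%) were higher in replicate 1 and 3 (17.6%) lower. Malate dehydrogenase Mdh2 led with 308 TPM in replicate 1 against 285 TPM in replicate 2, then Dlst with 55.0 and 102 TPM. Pdhx was lowest with 1.19 TPM in replicate 1 against 0 in replicate 2. All 20 genes of electron carriers and quinone synthesis were detected by their mean, 15 of them at 1 TPM or more in both libraries. Their medians were 11.2 TPM in replicate 1 against 5.23 TPM in replicate 2, and 9 of 18 tested (50%) were higher in replicate 1 and 2 (11.1%) lower. Etfb, a subunit of the electron transfer flavoprotein, led with 366 TPM in replicate 1 against 40.3 TPM in replicate 2, then Coq4 with 99.2 and 211 TPM and Coq9 with 58.5 and 180 TPM. Gpd2 was lowest with 3.33 TPM in replicate 1 against 0.79 TPM in replicate 2.

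Of 7 carriers and channels for ATP and phosphate, 6 were detected, and 2 of 6 tested (33.3%) were higher in replicate 1, near the share of all genes. The phosphate carrier Slc25a3 had 240.1 TPM in replicate 1 against 286 TPM in replicate 2, Vdac2 had 314 and 107 TPM, and the ATP carrier Slc25a4 had 44.0 and 26.3 TPM; Slc25a31, the testis form, had 0 counts in both. Among 17 regulators of mitochondrial biogenesis, 13 were detected, with medians of 4.73 TPM in replicate 1 against 2.85 TPM in replicate 2, and 2 of 11 tested (18.2%) were higher in replicate 1 and 4 (36.4%) lower. Esrra, a nuclear receptor of energy metabolism, led with 54.1 TPM in replicate 1 against 77.5 TPM in replicate 2, then Yy1 as given above and the mitochondrial RNA polymerase Polrmt with 10.7 and 25.3 TPM. Ppargc1a, the coactivator PGC-1 alpha, had 0 counts in both libraries. All 7 low oxygen genes listed were detected by their mean, 5 of them at 1 TPM or more in both libraries. None of the 5 tested passed 2-fold. Bnip3 had 125.2 TPM in replicate 1 against 67.8 TPM in replicate 2, Higd1a 62.4 and 52.7 TPM and Egln3 65.8 and 49.0 TPM, with Cox4i2 lowest.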

How the data were processed

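Polyadenylated RNA of mouse megakaryocytes was measured in 2 libraries of 1 group. For each library the authors deposited a gene table and a transcript table; the file lists beside them name mm10 and GENCODE M4. Of the aligner, quantifier and strand setting, no name or version is given in the sources used here. Each table's expected count is, per the file headers, an estimated number of fragments that need not be whole. TPM is a level per effective length scaled to depth, per the file headers, and was used as deposited. FPKM, deposited beside it, was not used. The deposited isoform percent was not used; shares were taken from transcript TPM. The deposited interval bounds, a score of the authors' quantifier, were not used.

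Symbols and positions came from GENCODE M21 on GRCm38 by Ensembl identifier, and promoter sequences from RefSeq (GRCm38.p6). Levels are TPM, with mean ± SD over the libraries (n = 2). For ratios of replicate 1 over replicate 2, expected counts were rounded and scaled by edgeR 4.0.16 TMM factors (1.16 and 0.859, from genes with a mean count of 10 or more). Exact Clopper-Pearson 95% intervals cover counting error only, because fragments lacking molecular identifiers are not independent. The 2-fold calls used genes with a mean count of 100 or more and no prior count; medians of log2 ratios used a prior count of 0.5. Expected counts were fractional for 3.53% of genes in replicate 1, against 1.43% of genes in replicate 2. Copies were sought with blastn 2.17.0 among annotated transcripts. Alternatives used DESeq2 1.42.0 size factors, other count minimums and folds, and lowess trends with length or GC content. Steps ran in R 4.3.3 and Python 3.11.15.

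The members and all gene lists were chosen with earlier results of these data known. Named were the 3 highest and the lowest member of each complex, members under a mean TPM of 1, alternative subunit genes, core subunits, the 5 largest and smallest ratios, members whose leading transcript differed, and the 3 highest and the lowest gene of each pathway list. Ndufa12, Nrf1, Gabpa and other members were named after their values were seen. Values of single genes that these rules would name but that are absent from the text and the plots are not reported here.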

Additional observations from a re-analysis of the deposited data

Results flagged for a closer look

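Near-identical copies of subunit genes at other loci, which the levels of the members do not include, carried counts above the floor of 3. Ndufb4c, identical to the coding part of Ndufb4, held 8508 expected counts in replicate 1 and 641.6 in replicate 2. Of the copies of Atp5g2, Gm10231 held 2038 expected counts in replicate 1 and 40.63 in replicate 2, and Gm10175 held 56.78 in replicate 1 and 35.56 in replicate 2.

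In replicate 1 only, 4 further copies passed the floor. Gm11273, annotated as protein coding and 99.2% identical to Cox5b over 390 bases, held 392.1 expected counts, beside 43772 for Cox5b. Gm6969, a copy of Cox7a2l, held 190.1, and Gm10039, a copy of Atp5g1, held 177.1. Gm12338, a copy of Cox7c, held 24.54. For Gm11273, Gm10039 and Gm12338 the counts were small beside those of the member. Gm6969 was nearer to its member, with 190.1 counts beside 1100 for Cox7a2l, and 23.4 TPM beside 29.7 TPM in replicate 1. Adding the counts of these 4 copies moved no call. No further result met a rule for a closer look: with 2 libraries in 1 group, outliers within groups and differences between groups were not examined.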

How the results depend on the processing

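The difference of medians and the 2-fold calls of single members kept their sign under the alternatives run; another scaling cannot move that difference. Of 70 single-member log2 ratios, 17 changed sign under at least 1 scaling, measure or trend, all within 2-fold at first, among them Atp5d (-0.51, and 0.16 with the GC trend removed) and Ndufb2 (0.40, and -0.40 with the length trend removed). The median TPM of members (63.0) ran from 31.9 without replicate 1 to 90.6 without replicate 2, and that of complex V from 62.7 to 128.3. The complex IV median, 18.2 over 16 genes, was 70.07 over the 13 with a mean count of 10 or more, because genes near 0 were left out. Of 40 members higher and 3 lower in replicate 1, 15 of 32 were higher with a minimum of 50 CPM, where 15.8% of all genes were higher and 26.4% lower. At 1.5-fold 8 were lower; at 4-fold 21 were higher and 0 lower; with the length trend removed 10 were lower. For these the cause was not tested, beyond fewer or more genes passing each limit. The all-gene median log2 ratio was 0.29 with TMM factors, 0.16 with DESeq2 size factors, 0.73 with total counts and -0.37 at 50 CPM. Counts summed with copies (39 higher, 3 lower) and inclusion of the pseudogene names (median 59.9) were chosen after seeing the data. Of single-member values, 535 stayed within their spread or interval and 143 moved. Leaving out a library could not be run for ratios or leading transcripts, which need both. No paired analysis was possible because the labels give 1 group. Depth of replicate 2 limits most ratios.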
